A study of Mus musculus with 5 samples.

Results

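The genes described here are the amino acid transporters of 6 solute carrier families, chosen by gene symbol alone (Slc1a, Slc3a, Slc7a, Slc36a, Slc38a and Slc43a, each followed by a number). All 42 mouse genes that carry such a symbol in RefSeq were measured, among 23185 named genes in all. The cells were Ocy454, a conditionally immortalised mouse osteocytic line, as 5 clones grown from single cells, with 1 Affymetrix array apiece. The submitters screened 37 clones for Sost, the gene of the Wnt inhibitor sclerostin, and profiled 2 high-Sost clones, 12H and 15H, whose level was highest, and 3 low-Sost clones, named 4L, 9L and 24L. Every clone was untreated and was kept for 7 days at 37 °C in aMEM with fetal bovine serum and an additive that the labels abbreviate as AA and do not spell out. Each clone is a line of its own with 1 array, so any p-value measures the spread between clones, and what belongs to a clone cannot be told apart from what belongs to its culture.

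Amino acids cross the plasma membrane through carriers that differ in what they move and in what drives them. Slc1a proteins take up glutamate or small neutral amino acids with sodium, Slc38a proteins take up glutamine and other neutral amino acids with sodium, and Slc36a proteins move small amino acids with protons. Most Slc7a proteins are exchangers that need a partner of the Slc3a family to reach the membrane, and Slc43a holds facilitators for large neutral amino acids. Osteoblast-lineage cells make large amounts of collagen, which is rich in glycine and proline, and glutamine uptake is known to matter for their protein synthesis.

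Values are RMA expression on the log2 scale, in which 1 unit is a 2-fold difference, and they compare clones for a gene but not genes with each other. A gene was called above background in a clone where it exceeded the 95th percentile of 1354 olfactory and vomeronasal receptor genes on that array, a level of 3.37 to 3.56. By that rule 28 transporters were above background in all 5 clones, 4 in some and 10 in none. Array medians lay between 4.13 and 4.16. Precision is limited by how few arrays there are, since with groups of 2 and 3 no exact permutation test can reach a p below 0.1. The families were put forward with earlier results on these clones known, so all differences between high-Sost and low-Sost clones are given as a description. Sost itself read 4.08 in 12H, 3.92 in 15H and 3.78, 3.89 and 3.91 in the low-Sost clones. Of the osteocyte markers, Dmp1 and Phex were above background in the 2 high-Sost clones alone, and Mepe and Fgf23 in no clone.

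**Figure D1:**
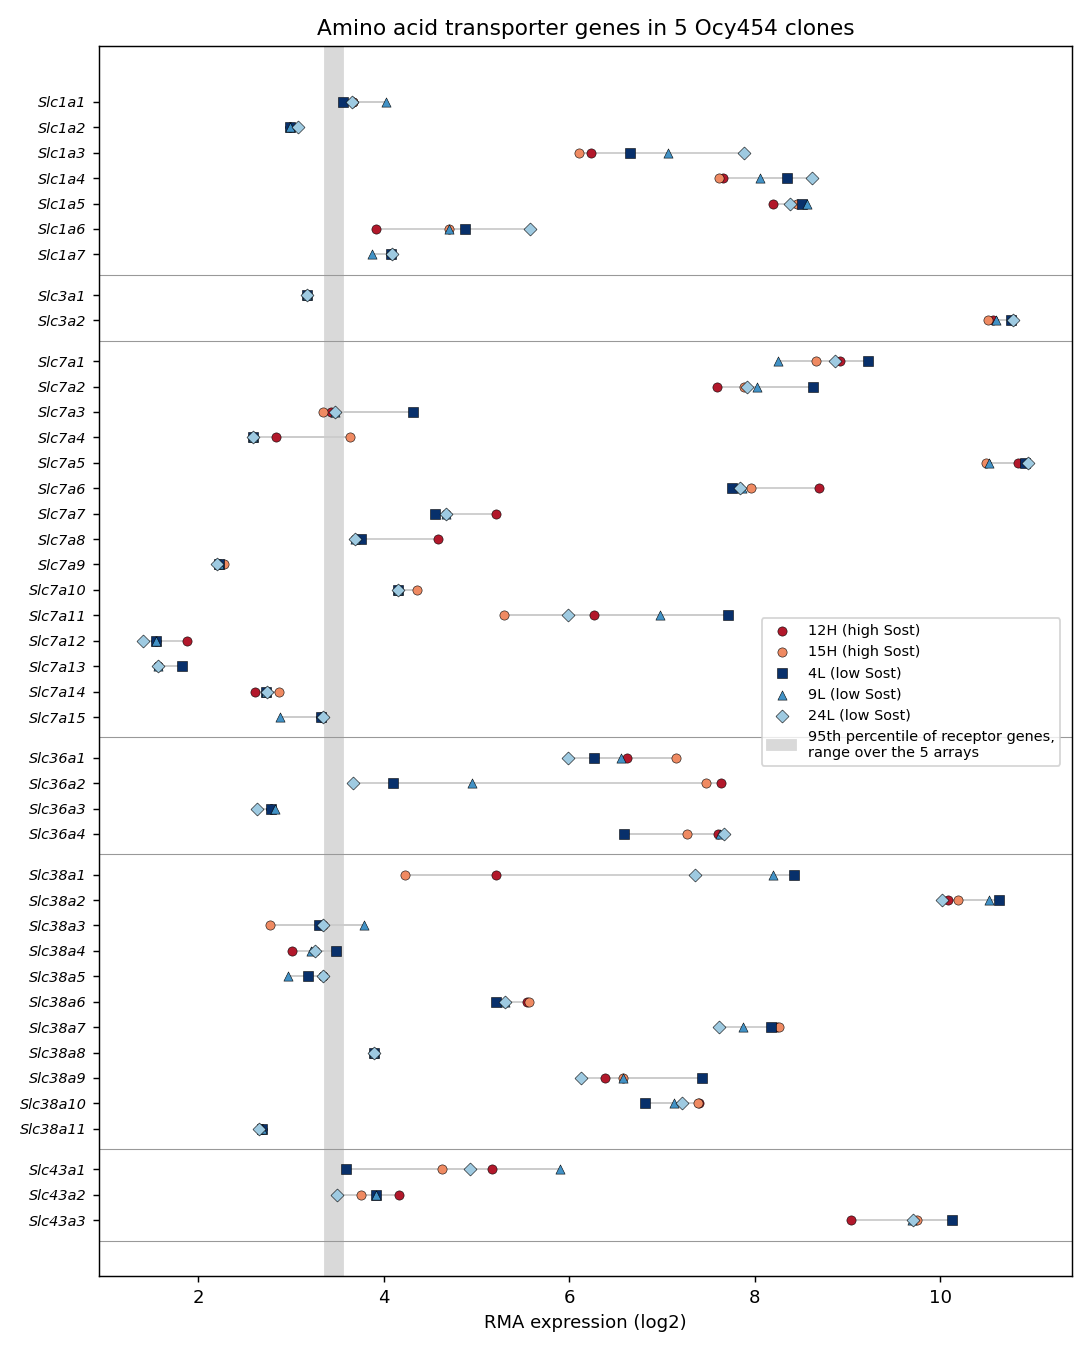
RMA expression (log2, horizontal axis) of the 42 transporter genes by family, with 1 symbol for each of the 5 clones; the grey band spans the background level of 3.37 to 3.56. The symbols of Slc36a2 and Slc38a1 separate widely by group, while those of Slc7a5 and Slc3a2 lie close together.

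Of the 42 transporters, 2 stood out by the size of the difference between the groups, in opposite directions. Slc36a2, a proton-coupled carrier of glycine and proline, was higher in the high-Sost clones, by 9.96-fold. Slc38a1, a sodium-coupled carrier of glutamine, was 9.64-fold lower in them. Slc1a3, a glutamate transporter, was 2.04-fold lower and was the last member at least 2-fold apart with no overlap between clones. That gives 1 member higher and 2 lower, against 0.867% and 0.983% of all named genes, and 1.38% and 1.56% of those above background in at least 1 clone. No member passed limma's test with Benjamini-Hochberg adjustment over all genes (0 of 42), as no gene of the array did (0% called). At an unadjusted p under 0.05 limma listed 2 members as higher and 2 as lower, against 3.07% and 2.71% of all genes, and the members' adjusted p began at 0.572.

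The median difference over the 42 genes was 0.01, against 0.00 over all genes, and the median absolute difference was 0.20 against 0.11. Without regard to size, 8 of 42 members were higher and 6 lower with no overlap between groups, against 8.26% and 7.75% of all genes. A range of at least 2-fold over the 5 clones was seen in 14 members, against 11.7% of all genes. More of the transporters than of all genes were above background in at least 1 clone (76.2% against 62.6%). Among genes above background in at least 1 clone, a range of at least 2-fold was seen in 14 of 32 members (43.8%) and in 17.8% of all genes.

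**Figure D2:**
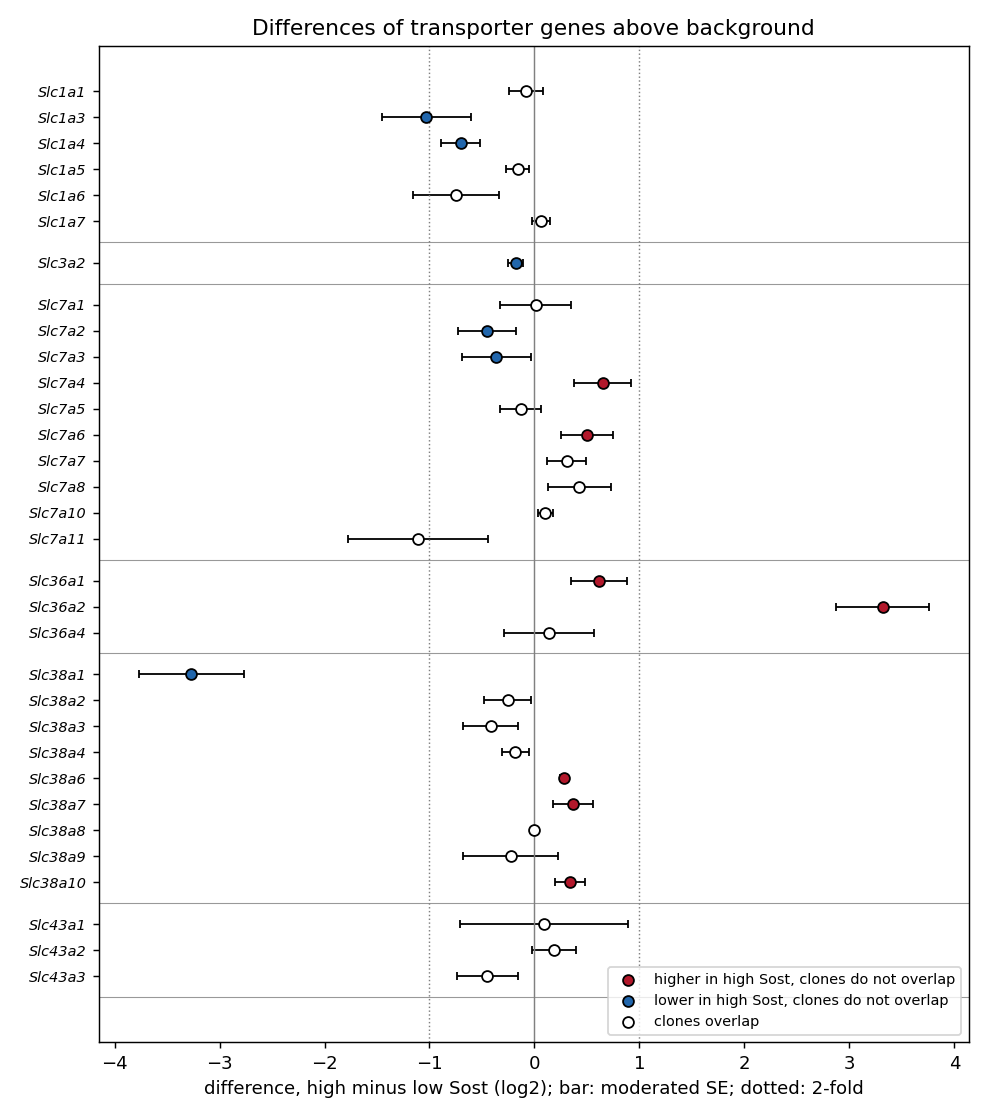
Difference between high-Sost and low-Sost clones (log2, horizontal axis) for the 32 transporters above background in at least 1 clone, by family; points are differences of group means, bars the moderated standard error, and filled points mark groups that do not overlap. Slc36a2 at 3.32 and Slc38a1 at -3.27 lie far outside the 2-fold lines, and Slc1a3 at -1.03 lies just past one.

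The Slc36a family are the proton-assisted transporters, and 1 of its 4 genes carried the widest upward difference. Slc36a2 (PAT2; Entrez gene 246049, chromosome 11) read 7.64 in 12H and 7.48 in 15H, while 9L read 4.95, 4L read 4.10 and 24L read 3.67. Both high-Sost clones were high and within 0.16 of each other, while the 3 low-Sost clones spread over 1.29. The nearest clones of the 2 groups, 15H and 9L, were 2.52 apart. The high-Sost mean was 7.56 ± 0.11 (SD, n = 2) and the low-Sost mean 4.24 ± 0.65 (SD, n = 3), which left a difference of 3.32 (SE 0.44, limma adjusted p = 0.572). With any 1 clone left out the difference stayed between 3.03 and 3.67.

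Slc36a1 (PAT1), which exports amino acids from lysosomes and takes part in mTORC1 signalling, read 6.62 and 7.15 against 6.26, 6.56 and 5.99. Its groups did not overlap, but 12H and 9L were only 0.06 apart, and the difference was 0.62 (SE 0.26, limma adjusted p = 0.737), or 0.35 without 15H. Slc36a4 (PAT4), a carrier of proline and tryptophan, overlapped between groups, with 4L lowest at 6.59 and the other 4 clones between 7.27 and 7.67. Slc36a3 stayed under background in all 5 clones.

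Slc36a1, Slc36a2 and Slc36a3 lie side by side on chromosome 11, so their order allows a look at the surrounding genes. Slc36a3, next to Slc36a2 on one side, differed by 0.03, and Slc36a1os, next to it on the other side, by 0.02, both under background in every clone. Gm2a, beyond Slc36a3, differed by 0.25. The difference of Slc36a2 was thus more than that of any of the 8 measured genes nearest to it, among which Slc36a1 was highest. The median of chromosome 11 genes did not shift in any clone (0.00 in all 5).

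**Figure D3:**
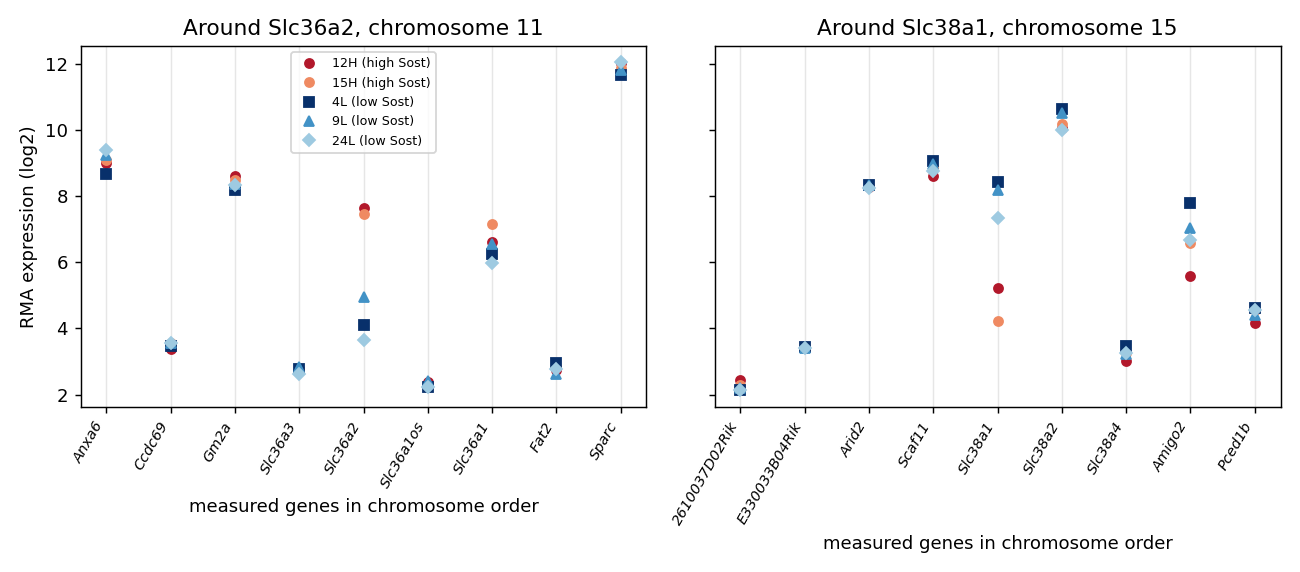
RMA expression (log2, vertical axis) of Slc36a2 and Slc38a1 and of the 4 measured genes on each side of them, in chromosome order along the horizontal axis and not to genomic scale, with 1 symbol for each clone. Slc36a2 and Slc38a1 separate the groups by 2.52 and 2.14 between their nearest clones, and the adjoining Slc36a3 and Slc38a2 do not separate them. Gm2a, Slc36a1, 2610037D02Rik and Amigo2 also separate the groups, by less.

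The Slc38a family, the sodium-coupled neutral amino acid transporters, held the widest downward difference. Slc38a1 (SNAT1; Entrez gene 105727, chromosome 15) read 5.21 in 12H and 4.24 in 15H, while 4L read 8.43, 9L read 8.20 and 24L read 7.35. All low-Sost clones were high, and 24L, the lowest of them, was 2.14 above 12H. The high-Sost mean was 4.72 ± 0.69 (SD, n = 2) and the low-Sost mean 7.99 ± 0.57 (SD, n = 3), which left a difference of -3.27 (SE 0.50, limma adjusted p = 0.590). The difference ran from -3.76 to -2.78 with 1 clone left out.

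Slc38a2 (SNAT2), which adjoins Slc38a1 and is the carrier that cells raise when amino acids run short, did not share this pattern. It read 10.08 and 10.20 against 10.64, 10.52 and 10.02. The groups overlapped, since 24L was the lowest of all 5, and the difference was -0.25 (SE 0.22), or -0.13 without 4L and -0.44 without 24L. Slc38a4 (SNAT4), the next gene, was above background in 4L alone and differed by -0.18. Amigo2, a cell adhesion gene beyond Slc38a4, did separate the groups, at 5.57 and 6.59 against 7.80, 7.04 and 6.68, a difference of -1.09 with 0.09 between 15H and 24L. On the other side Scaf11 differed by -0.19 and Arid2 by -0.01.

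Other members of the family differed by much less than Slc38a1. Slc38a6, a member of little known function, had the smallest p among higher members next to Slc36a2, with clones close to each other in both groups, at 5.55 and 5.57 against 5.22, 5.31 and 5.31. The difference was 0.28 (SE 0.04), or 1.22-fold, with a limma adjusted p = 0.572. Slc38a7, a lysosomal glutamine exporter, and Slc38a10 were also higher without overlap, by 0.37 (SE 0.19) and 0.34 (SE 0.14), with 0.06 and 0.17 between the nearest clones. Slc38a9, the lysosomal arginine sensor that activates mTORC1, read 6.39 and 6.59 while 4L read 7.43, 9L read 6.59 and 24L read 6.13. Clone 4L stood above the rest and the groups overlapped. Without 4L its difference turned from -0.23 to 0.13.

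The remaining Slc38a genes were near or under background. Slc38a3 (SNAT3) was above background in 9L alone, at 3.79, and overlapped between groups. Slc38a5 (SNAT5) and Slc38a11 were under background in all clones, and Slc38a8 read 3.89 on every array.

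The Slc1a family joins glutamate transporters and neutral amino acid exchangers, and 6 of its 7 genes had a negative difference, against 11139 of 23185 named genes. Only 2 of them, Slc1a3 and Slc1a4, were lower without overlap, and Slc1a2 was under background in every clone. Slc1a3 (GLAST or EAAT1; chromosome 15), a glutamate transporter that has been described in osteoblasts and osteocytes, read 6.24 and 6.11, while 4L read 6.66, 9L read 7.07 and 24L read 7.89. The high-Sost clones were lowest and close together, and the low-Sost clones spread over 1.23 up to 24L. The difference was -1.03 (SE 0.42, limma adjusted p = 0.737). It was -0.69 without 24L and -0.97 without 15H, both short of 2-fold.

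Chromosome 15 as a whole was uneven between clones, and it carries Slc1a3, Slc38a1, Slc38a2 and Slc38a4. The median of its 347 genes with a mean of 6 or more, relative to all such genes, lay at -0.28 in 12H, -0.04 in 15H, 0.20 in 4L, 0.19 in 9L and 0.00 in 24L. With these medians subtracted Slc1a3 differed by -0.75, short of 2-fold, Slc38a1 by -2.98 and Slc38a2 by 0.03. Near Slc1a3, Wdr70 differed by -0.62, Cplane1 by -0.47, Nup155 by -0.46 and Nipbl by -0.27 on one side. On the other, Lmbrd2 differed by -0.35, Skp2 by -0.28, Nadk2 by 0.01 and Ranbp3l, under background, by 0.15.

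Slc1a4 (ASCT1), an exchanger of alanine, serine and cysteine, read 7.66 and 7.61 against 8.34, 8.06 and 8.62. Every low-Sost clone was at least 0.40 above both high-Sost clones, and the difference was -0.70 (SE 0.19, limma adjusted p = 0.737). Slc1a5 (ASCT2), the main glutamine exchanger of proliferating cells, read 8.19 and 8.46 against 8.52, 8.57 and 8.38. Its groups overlapped at 15H and 24L, with a difference of -0.16 (SE 0.11), which was -0.027 without 12H and -0.29 without 15H. Slc1a6 (EAAT4), best known from Purkinje cells, read 3.91 and 4.70 against 4.88, 4.70 and 5.58, so that 12H was lowest and 24L highest. Slc1a1 (EAAT3), a carrier of glutamate and cysteine, and Slc1a7 (EAAT5) were above background but stayed between 3.56 and 4.09 in all clones, and Slc1a2 (GLT-1) was under background in all.

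The heavy chains of the Slc3a family anchor Slc7a transporters in the membrane. Slc3a2 (4F2hc or CD98), the partner of most of them, read 10.57 and 10.51 against 10.77, 10.61 and 10.79. The groups did not overlap, yet 12H and 9L were 0.03 apart, and the difference of -0.18 (SE 0.07) amounted to 1.13-fold. Slc3a1 (rBAT), the partner used in kidney and intestine, read 3.18 on every array, under background.

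Of the light chains that carry large neutral amino acids, Slc7a5 showed little contrast between groups, while Slc7a6, Slc7a7 and Slc7a8 were highest in 12H. Slc7a5 (LAT1), which brings in leucine in exchange for glutamine, read 10.84 and 10.49 against 10.91, 10.53 and 10.95. Clones 15H and 9L were the lower pair, 1 from each group, and the difference was -0.13 (SE 0.20), or 0.04 without 15H. The gene lies on chromosome 8, whose median stood at 0.23 in 12H and -0.19 in 9L. With chromosome medians subtracted Slc7a5 differed by -0.31 (SE 0.10). Slc7a8 (LAT2) read 4.59 in 12H and between 3.69 and 3.75 in the other clones. Slc7a6 (y+LAT2), an exchanger of arginine for glutamine, was likewise highest in 12H, at 8.69, with 15H at 7.96 and the low-Sost clones between 7.76 and 7.87. Its groups did not overlap, by 0.09, with a difference of 0.50 (SE 0.25), and the 2 high-Sost clones were 0.73 apart. Slc7a7 (y+LAT1) read 5.21 in 12H and between 4.56 and 4.67 elsewhere. Differences for Slc7a8 and Slc7a7, whose groups overlapped, were 0.43 (SE 0.30) and 0.31 (SE 0.19). Slc7a6 lies on chromosome 8 too, and Slc7a7 and Slc7a8 on chromosome 14. The medians of these chromosomes in 12H stood at 0.23 and 0.25, and their part in the levels of these 3 genes in 12H was not tested.

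Slc7a11 (xCT), which imports cystine in exchange for glutamate and feeds glutathione synthesis, had the widest range of the Slc7a family. It read 6.26 in 12H and 5.30 in 15H, while 4L read 7.71, 9L read 6.99 and 24L read 5.99. Clone 24L lay below 12H, so the groups overlapped, and the range of 2.41 over the clones exceeded the difference of -1.11 (SE 0.67, limma adjusted p = 0.737). Without 24L the difference was -1.57 and without 12H -1.59, in both cases at least 2-fold with no overlap. It was -0.63 without 15H and -0.70 without 4L.

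The Slc7a11 promoter is a known target of ATF4, the transcription factor of the amino acid response, and its sequence is shown to mark the letters of that response element. The motif searched was TGATGCAA on both strands, read as TTGCATCA on the reverse, in the 250 bases before each RefSeq transcription start (GRCm38.p6). Of 31 members with a promoter entry 2 held it, against 0.918% of 27025 genes, and Slc7a11 held it at 2 places, 66 and 47 bases before the start. Since Slc7a11 was known as a target beforehand, this count does not test whether the motif is more common in these families. Both windows are written 5′ to 3′ on the minus strand with the motif in capitals, at chr3:50443614-50443863 for Slc7a11 and chr14:54417703-54417952 for Slc7a7.
Slc7a11: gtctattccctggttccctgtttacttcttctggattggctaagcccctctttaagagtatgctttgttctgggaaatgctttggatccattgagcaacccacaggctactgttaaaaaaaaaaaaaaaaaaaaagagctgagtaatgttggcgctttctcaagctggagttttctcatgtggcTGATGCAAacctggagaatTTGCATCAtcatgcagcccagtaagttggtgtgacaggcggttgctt
Slc7a7: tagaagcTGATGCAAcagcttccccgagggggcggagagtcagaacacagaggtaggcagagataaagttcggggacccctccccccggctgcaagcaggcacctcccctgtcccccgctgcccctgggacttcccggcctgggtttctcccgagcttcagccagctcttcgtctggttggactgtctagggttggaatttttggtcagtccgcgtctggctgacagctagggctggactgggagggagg
The single motif of Slc7a7 lay 243 bases before the start. Slc7a11 was highest in 4L, while Slc7a7 was nearly level outside 12H, at 4.67 in 15H, 9L and 24L and 4.56 in 4L. Whether the 2 genes vary together cannot be told from so flat a gene. A match of letters describes the window and does not show a site in use. Members with no promoter entry were Slc1a5, Slc7a2, Slc7a3, Slc7a4, Slc7a5, Slc7a12, Slc7a13, Slc36a2, Slc38a1, Slc38a3 and Slc43a3.

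Among the cationic amino acid transporters, Slc7a1 (CAT1), the general arginine and lysine carrier, read 8.92 and 8.66 against 9.22, 8.25 and 8.86. Its group means differed by 0.01, and the highest and lowest clones, 4L and 9L, were both low-Sost. Slc7a2 (CAT2) was lower in the high-Sost clones without overlap, at 7.59 and 7.89 against 8.63, 8.03 and 7.92, with 0.03 between 15H and 24L and a difference of -0.45 (SE 0.28). Slc7a3 (CAT3) stood out in 4L, at 4.32, and read between 3.35 and 3.48 elsewhere, with the groups just apart. Slc7a4, an orphan relative, was above background in 15H alone, at 3.64, against 2.84 in 12H and 2.59 in each low-Sost clone. Slc7a10 (Asc-1) read 4.16 to 4.36, and Slc7a9, Slc7a12, Slc7a13, Slc7a14 and Slc7a15 were under background in all clones. Slc7a9 is among the 8 counted as higher without overlap, at a level where that has no meaning for expression. Slc7a4 is among these 8 too, with 12H and every low-Sost clone under background. Slc7a3, among the 6 counted as lower, was under background in both high-Sost clones.

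The Slc43a family varied between clones without following the groups. Slc43a1 (LAT3), a facilitator for branched-chain amino acids, read 5.17 in 12H and 4.62 in 15H, between the low-Sost clones 4L at 3.59 and 9L at 5.91, with 24L at 4.93. That range of 2.31 was nearly as wide as for Slc7a11, while the group difference was 0.09 (SE 0.80) and turned to -0.52 without 4L and to -0.18 without 12H. Slc43a3, since assigned to purine bases rather than amino acids, read 9.04 in 12H and 9.75 in 15H against 10.13, 9.70 and 9.71. Slc43a2 (LAT4) stayed between 3.50 and 4.16.

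Clone by clone, the 2 high-Sost clones differed least from each other. No transporter was 2-fold apart between 12H and 15H (0 of 42), which is near the 1.98% of all genes that were. Between low-Sost clones 1 member was 2-fold apart for 9L and 24L, 2 for 4L and 9L, and 6 for 4L and 24L, against 2.69%, 4.43% and 3.51% of all genes. Between a high-Sost and a low-Sost clone the count ran from 2 for 12H and 9L, which were Slc36a2 and Slc38a1, to 8 for 12H and 4L. Over all genes these pairs stood at 3.64% and 6.23%, the last being the highest share of any pair. Clones 15H and 9L, also of different groups, stood at 2.04% of all genes, close to 12H and 15H, and had 6 members 2-fold apart. Slc36a2 and Slc38a1 were among the members 2-fold apart in all 6 pairs of a high-Sost and a low-Sost clone. Of the 32 members above background in at least 1 clone, 4L was the highest clone for 9 and the lowest for 7. Other clones were close, with 24L highest for 7 and 15H lowest for 8, and the same count over all genes was not made.

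Genes of the amino acid response, most of them ATF4 targets, had a negative difference in 22 of 31 cases, against 11139 of 23185 named genes. None passed limma's test over all genes. Of 31 measured, 8 were lower and 1 higher without overlap (25.8% and 3.23%), against 7.75% and 8.26% of all genes, and the median difference was -0.19. Cth, which makes cysteine from cystathionine, read 6.57 and 6.66 against 8.54, 7.91 and 7.68, a difference of -1.43 (SE 0.30, limma adjusted p = 0.681). Fgf21, a stress hormone, was the other gene at least 2-fold lower. It was under background in both high-Sost clones, at 3.35 and 3.48, against 5.58, 5.28 and 5.16, and with those clones set to the background level it was at least 3.44-fold lower. Ddit4, an mTORC1 inhibitor, was next at -0.89. Atf4 itself, at 9.71 and 9.76 against 10.07, 10.22 and 9.73, overlapped between groups, as did Asns, the asparagine synthetase. The higher gene was Wars, a tryptophan tRNA synthetase. Without 4L, where this list was highest on average (a check chosen after seeing the data), 10 were lower and 2 higher without overlap, against 11.1% and 12.0% of all genes.

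**Figure D4:**
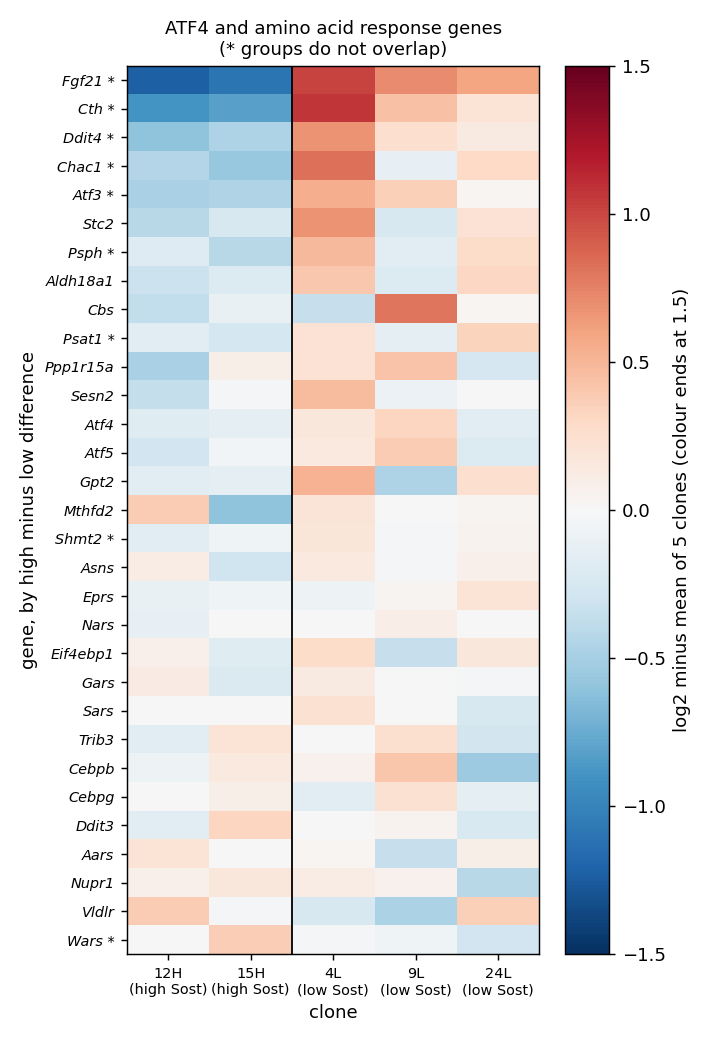
Expression of 31 ATF4 and amino acid response genes in each clone (columns) as log2 deviation from the mean of the 5 clones (colour, ending at 1.5 either way), ordered by the difference between groups. The 8 genes lower and the 1 gene higher without overlap are starred, with Fgf21 and Cth at the top.

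Enzymes that use the transported amino acids, and genes listed with them, were mixed. Their counts without overlap are read against 8.26% higher and 7.75% lower among all genes. Of 19 cystine and glutathione genes 5 were higher (26.3%) and 2 lower (10.5%), with a median of 0.13. The 5 were Srxn1, Gsr, Hmox1, Txnrd1 and Nqo1, while the glutathione synthesis genes Gclc, Gclm and Gss overlapped between groups. Srxn1, a reductase that restores oxidised peroxiredoxins, and Gsr, the glutathione reductase, were higher by 0.90 (SE 0.12) and 0.70 (SE 0.08), and Chac1, which degrades glutathione, differed by -0.84 (SE 0.33). Of 13 genes of branched-chain amino acid breakdown 4 were lower (30.8%) and 0 higher, led by Ivd at -0.78, Mccc2 at -0.67 and Bckdhb at -0.54. The next counts lay near the shares of all genes. Of 15 glutamine and glutamate genes 1 was higher (6.67%), Glud1 at 0.33, and 2 were lower (13.3%), the proline-synthesis gene Pycrl at -0.71 and Aldh4a1 at -0.20. Of 17 arginine and polyamine genes 2 were higher and 2 lower (11.8% each), with Smox, a spermine oxidase, at 0.77, Azin2 at -0.65 and Oaz1 at 0.28, or 0.16 without 4L.

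Sensors of amino acids upstream of mTORC1 showed no shared direction. Of 37 measured, 3 were higher (8.11%) and 4 lower (10.8%) without overlap, close to the 8.26% and 7.75% of all genes, with a median of -0.02. Deptor, an mTOR inhibitor, read 5.76 and 5.98 against 7.34, 6.47 and 7.76, a difference of -1.32 (SE 0.45), while the arginine sensor Castor1 differed by 0.52 (0.33 without 4L) and Nprl2, a GATOR1 subunit, by -0.38. Of 6 integrated stress response kinases and their regulators 1 was higher, Eif2ak3 (PERK) at 0.55, too few genes to set against a share.

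Transporters outside the 6 families differed less between the groups than Slc36a2 and Slc38a1, and only Slc6a15 ranged as widely between clones. Slc6a15, a carrier of branched-chain amino acids and proline, read 6.57 in 12H, 2.16 in 15H, 2.19 in 4L, 2.40 in 9L and 6.41 in 24L. It was high in 1 clone of each group, and its range of 4.41 was wider than that of Slc38a1 at 4.19. Of 21 other plasma membrane, lysosomal and vesicular amino acid transporters 3 were higher (14.3%) and 2 lower (9.52%) without overlap, against 8.26% and 7.75% of all genes. A range of at least 2-fold over the clones was seen in 3 of them, against 14 of the 42 members and 11.7% of all genes. None had groups 2-fold apart without overlap (0 of 21), which under 1% of all genes had in either direction. Slc6a6, the taurine transporter, differed by 0.59, Slc6a9, the glycine transporter GlyT1, by -0.49 and Slc66a1, a lysosomal exporter of cationic amino acids, by 0.41. Of 14 mitochondrial carriers 2 were higher (14.3%) and 1 lower (7.14%), with Slc25a38, a glycine carrier, at -0.57, Slc25a15, an ornithine carrier, at 0.54 and Slc25a13, an aspartate and glutamate carrier, at 0.43.

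Osteoblast markers differed between the groups too, and in bulk RNA fewer cells of a type cannot be told apart from less RNA per cell. Of 9 osteoblast markers 7 were higher without overlap, against 8.26% of all genes, and their mean level was 10.08 and 9.58 in the high-Sost clones and 5.96 to 8.35 in the low-Sost clones. Ibsp, Sp7 and Dlx3 differed by 4.94, 3.78 and 2.99. Ibsp and Sp7 were under background in 4L, at 2.24 and 2.68, and without that clone they differed by 2.70 and 2.17. Among 9 Sost and osteocyte markers 6 were higher, led by Phex, Dmp1 and Dkk1, and 1 was lower, against 8.26% and 7.75% of all genes. The lower one was Pdpn, at -0.92 (SE 0.13). Sost itself, the gene by which the clones were chosen, was among the 6 by a small margin, with a difference of 0.14. Clone 15H read 3.92 and 24L read 3.91. Of 8 muscle and smooth muscle markers, with mean levels of 4.33 and 4.39 against 4.33 to 4.94, Tagln differed by -1.78 and Des by 1.26. Cnn1 was under background in both high-Sost clones and at least 7.00-fold lower there. Of 8 fibroblast and tendon markers (5.42 and 5.22 against 4.96 to 5.29), Pdgfra differed by 2.80 (1.68 without 4L), Scx by -1.02 and S100a4 by -0.63. All 7 chondrocyte, 7 adipocyte and 8 blood and endothelial markers overlapped between groups, and of the last Ptprc, Adgre1, Hbb-bs, Pecam1, Cdh5 and Tek were under background in every clone. The part of osteoblast and muscle marker differences in those of the transporters was not tested.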

How the data were processed

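Biotin-labelled total RNA of each of 5 Ocy454 clones went on 1 array. The authors deposited log2 expression for each probe set, made by RMA with affy 1.36.1 under R 2.15.1 per the submitters' processing notes. RMA brings arrays to 1 distribution, so a shift shared by most genes is removed. Chip definition: not given in the sources used here. The same holds for the genome build. Probe sets were named by the platform table and RefSeq symbols of GRCm38.p6 (23185 of 25206 rows, each gene with 1 probe set).

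Each gene was fitted with limma 3.58.1 in R 4.3.3 (group, eBayes, two-sided, threshold 0.05, Benjamini-Hochberg over 23185 genes). Non-overlap means that every clone of a group exceeds every clone of the other. The step was tested on simulated data with 200 of 23185 genes altered, where it recovered 80 of 100 genes altered 8-fold and 43 of 100 altered 2-fold, with 4 false calls. On the clones themselves 0 genes passed, Slc36a2 at 9.96-fold among those that did not. The simulated shares therefore show that the step runs and do not give its power on these clones. Members and lists were chosen with earlier results of these data known. Named by rule were members 2-fold apart without overlap, the 2 of widest range per family, the 2 of smallest p per direction and 5 of textbook role (16 in all); in each list, up to 3 genes of largest difference without overlap. The other members were named to account for all 42, and Slc36a2 and Slc38a1 neighbours, Atf4, Asns, Wars, Chac1, genes near Slc1a3, Slc6a15 and some markers after their values were seen. Of 242 list entries 229 were measured and 13 are not analysed here. Figures used matplotlib 3.10.9.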

Additional observations from a re-analysis of the deposited data

How the results depend on the processing

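Alternatives were arrays shifted to 1 median, quantile normalization again, leaving out the dimmest 30% of genes, limma with a variance trend (plain or robust), weighted arrays, a threshold of 0.1, a size limit of 1.5-fold, chromosome medians subtracted and leaving out each clone. No member passed limma under any of them (0 in each). With a limit of 1.5-fold 3 members were higher (Slc36a2, Slc36a1 and Slc7a4) and 3 lower (Slc38a1, Slc1a3 and Slc1a4). Slc7a4 was above background in 15H alone, so its place in this count and in those below rests on signals under background in the other clones. With chromosome medians subtracted 1 member was at least 2-fold lower, Slc38a1, since Slc1a3 lay on chromosome 15. With 1 clone left out the count ran from 1 to 2 higher and from 2 to 3 lower, and the median difference from -0.023 to 0.0063. Without 12H Slc7a4 joined the higher members and Slc7a11 the lower. Without 15H Slc1a6 stood in the lower count in place of Slc1a3, and without 24L Slc7a11 did. Over all genes the 201 higher and 228 lower became 348 and 472 without 15H, 302 and 377 without 9L, and 481 and 529 at 1.5-fold, and limma called 2 genes with arrays shifted, 2 with chromosome medians subtracted and 3 at the threshold of 0.1. Of 192 values of 16 named members under alternatives, 187 kept their sign. Part of these could not turn, since a variance trend or leaving out dim genes does not alter a member's difference. Shifting the arrays altered it by the same small amount for every member. Slc38a2 turned to 0.030 with chromosome medians subtracted. With 1 clone left out Slc38a9 ran from -0.52 to 0.13, Slc43a1 from -0.52 to 0.64 and Slc7a5 from -0.30 to 0.040. Where a high-Sost clone was left out, the lone one remaining was taken to vary as the low-Sost group does. Signals under background limit what can be said of 10 members. No paired analysis was possible because the groups share no replicate numbers.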
